A study of Homo sapiens with 4 samples.

Results

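The proteasome subunit mRNAs described here are the 38 genes whose symbols start with PSMA, PSMB, PSMC, PSMD, PSME, PSMF or PSMG and that had at least 30 counts summed over the 4 libraries. They were 38 of 49 symbols with these prefixes in a table of 19948 genes, of which 7527 passed the same minimum. The samples were HEK293T cells, a human embryonic kidney line carrying the large T antigen, held for 10 min in cycloheximide at 100 ug/mL, which stops elongating ribosomes on their mRNAs. No genotype change, inhibitor or other agent was named for any library. Lysate was spun through sucrose from 10% to 50%, and the RNA of the free, monosome, light polysome and heavy polysome pools was recovered. Capped RNA was captured on a mutant eIF4E, which binds the cap, and its polyadenylated molecules were read directly on nanopores. Each pool gave 1 library, so the data carry no measure of replicate error and no p-value is printed.

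The proteasome degrades proteins tagged with ubiquitin. Its core particle is a barrel of alpha and beta rings, whose beta subunits include the proteases. The regulatory particle at the end of the barrel has a base with a ring of ATPases that unfold the substrate and a lid that removes ubiquitin. Dedicated chaperones assemble the rings, and separate activators can cap the barrel in place of the regulatory particle. Subunits are needed in fixed proportions in every cell, and a cell line such as HEK293T makes the constitutive form.

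Library totals ranged from 355509 counts in the free library to 1564531 in the heavy polysome library. The shallow free library had under 10 counts for 22 of the 38 genes and no count for PSMC2 and PSME1. Levels are CPM, a gene's counts scaled to a common library total, each direct read standing for 1 RNA molecule whatever its length. VIM and KRT18, expressed in these cells, had 850 and 285 counts over the libraries, the renal marker PAX2 had 6, and of 3 genes of other cells PTPRC and ALB had none and HBB had 4, all in the free library. Shares of a library do not give the RNA mass of a pool, so a higher share is not a larger number of molecules.

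The study concerns mRNAs that start with a cytosine and a run of pyrimidines at the cap, the TOP mRNAs of ribosomal proteins. The first transcribed bases of proteasome mRNAs were therefore read from RefSeq start sites (GRCh38.p14). Below, 15 bases before the start are in lower case and the first 15 transcribed bases in capitals, 5′ to 3′, with RPS6 as a TOP mRNA for comparison. PSMB5 is shown because it had the pyrimidine run, PSMG4 and PSMB2 because their CPM was highest in the light polysome library, and PSMB4, PSMC2 and PSMD3 because theirs was highest in the heavy polysome library.
RPS6 (chr9:19380222-19380251, minus strand): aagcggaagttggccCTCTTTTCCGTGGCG
PSMB5 (chr14:23034886-23034915, minus strand): ttctcagaattagttCTTTCTGCCCACACT
PSMG4 (chr6:3258932-3258961, plus strand): ggtctctcggtgctcGCTCCATCGGGTCTG
PSMB2 (chr1:35641512-35641541, minus strand): tgcaggcgtcgcgccAATCTTCGCTCTGAG
PSMB4 (chr1:151399558-151399587, plus strand): gctttcattttttctGCTACCGTGACTAAG
PSMC2 (chr7:103347628-103347657, plus strand): ggggaagggaaagggAAGACACCACCGGAA
PSMD3 (chr17:39980792-39980821, plus strand): ggcctggcgtttcccAGAAGGCCCAGCGCC

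A cytosine followed by at least 4 more pyrimidines stood at 1 of 40 annotated starts of the 32 members matched in RefSeq, which was the second start listed for PSMB5. The same pattern stood at 43 of 73 starts of the tested ribosomal protein genes and at 5.91% of the starts of all tested genes. PSMC2 and PSMD3, far toward the heavy end, and PSMB2, which was as high in the light library, all had an adenine as their first base. PSMB4, highest in the heavy library, and PSMG4, highest in the light library, both had a guanine. Annotated starts need not be the starts used in these cells, and a match is a description of letters only.

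Proteasome mRNAs were most concentrated in the heavy polysome library. The 38 genes together took 0.124% of the free library (Clopper-Pearson 95% interval 0.113 to 0.136), 0.239% of the monosome library (0.231 to 0.247), 0.463% of the light polysome library (0.452 to 0.474) and 1.41% of the heavy polysome library (1.39 to 1.43). Their summed CPM was higher at each step up the gradient, by 1.93-fold, 1.94-fold and 3.04-fold. The median tested gene, with 0.5 added to each count, also gained share at each step, by 2.41-fold, 1.98-fold and 1.51-fold. By these values only the last step was larger for the proteasome sum, which is weighted to abundant members. At the first step 2363 of the 7527 genes lacked a count in the free or monosome library. With those at 3 counts the median gene lay 0.737 lower in log2, so the order at that step depends on the treatment of zeros. Intervals here and below cover counting error only. The core beta subunit PSMB4 was the most counted member, and without it the summed CPM was 12963 in place of 14075 in the heavy polysome library.

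**Figure D1:**
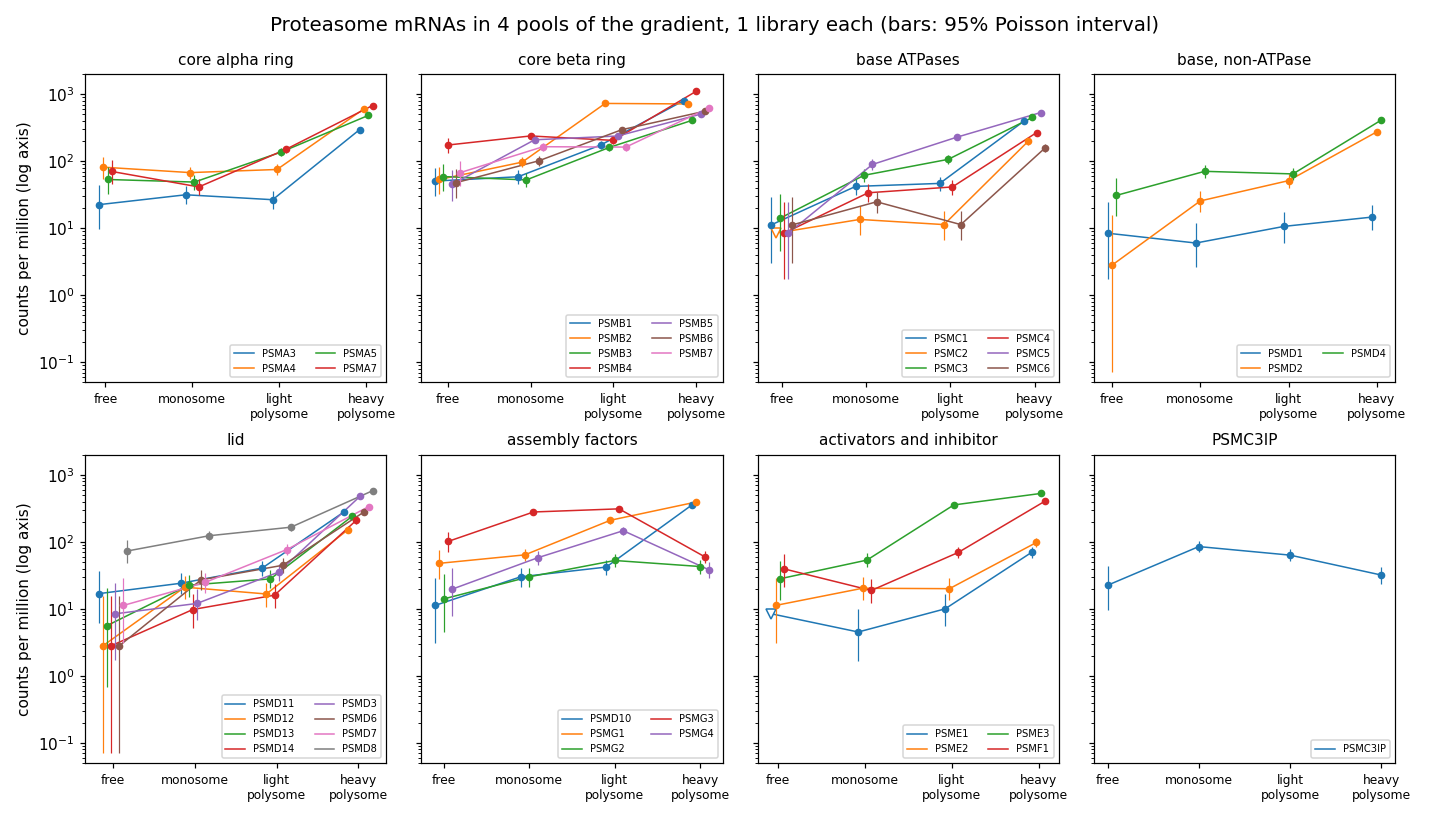
CPM on a log axis for the 38 genes in the free, monosome, light polysome and heavy polysome libraries, 1 panel per role, with 95% Poisson intervals of the count; open triangles mark PSMC2 and PSME1 without a count, drawn at 3 counts (8.44 CPM). Most lines are highest in the heavy polysome library, while PSMG3, PSMG4 and PSMC3IP fall there.

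Heavy polysomes were compared with light polysomes to ask which proteasome mRNAs took a larger share of the heavy polysome library. Ratios of CPM are given as log2 values relative to the median tested gene, and a gene was called higher or lower when it lay at least 2-fold from that gene with a 95% counting interval that left it out. By this rule 26 of 38 members were higher and 3 were lower, where 26% of all tested genes were called higher and 28.3% lower. The members' median was 1.64, and 31 of 38 lay above the median gene. Members had more counts than most genes, with a median of 373 CPM in the heavy polysome library against 37.7 for all tested genes, and hence narrower intervals. With the fold alone and no interval the counts were 26 and 3 again, against 26.8% and 29% of all tested genes. In plain CPM, with no centring, 29 members were higher and 2 lower, and 39.3% and 17.9% of all tested genes.

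**Figure D2:**
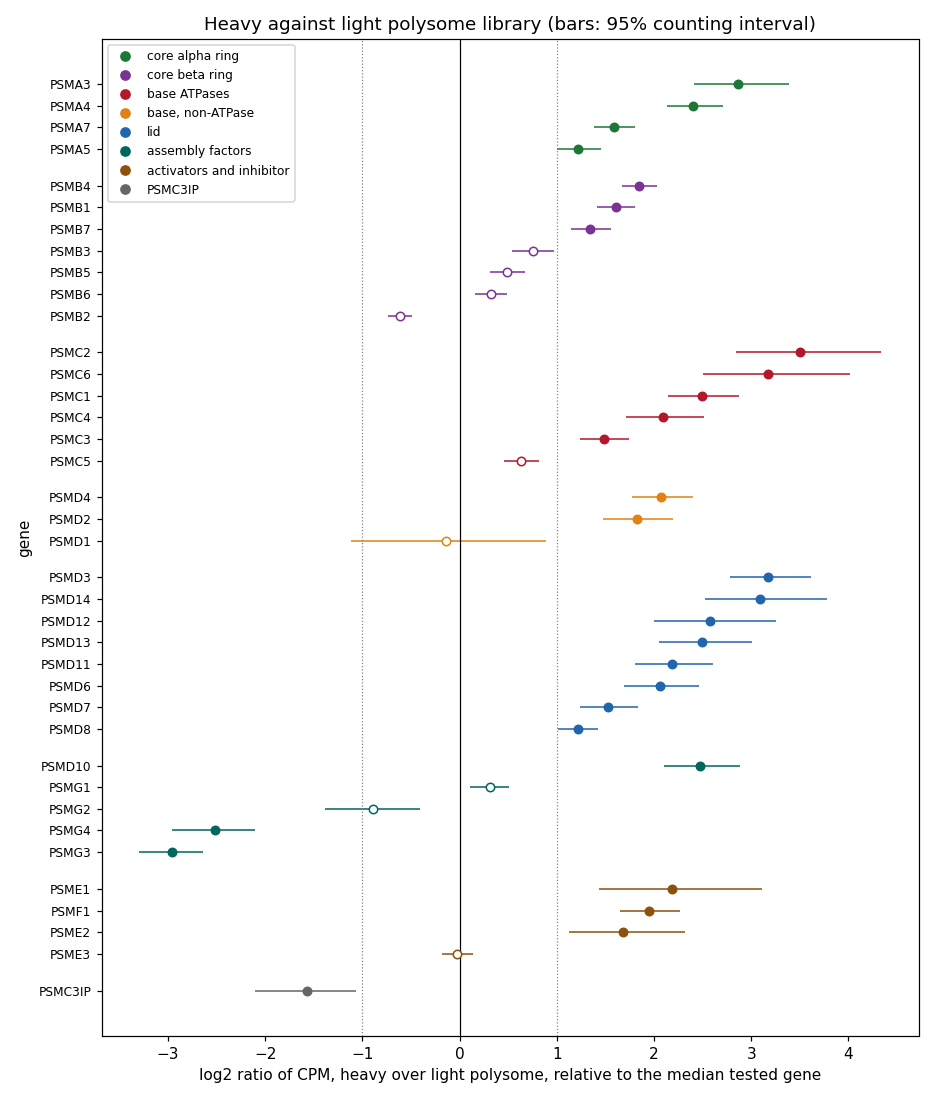
Log2 ratio of CPM in the heavy over the light polysome library, relative to the median tested gene (0), for each gene by role, with 95% counting intervals; filled points are called, open points are not, and dotted lines mark 2-fold. All 8 lid genes shown lie right of the upper dotted line, while assembly factors run from -2.96 to 2.47.

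The alpha ring gates the entry to the barrel, and all 4 of its measured subunits were higher in the heavy than in the light polysomes, with a median of 2.00. PSMA3 (chromosome 14, 58244831 to 58272012 of hg38) had 22.5, 31.6, 26.7 and 296 CPM from the free to the heavy polysome library. Its counting intervals overlapped among the 3 lighter libraries, and it lay at 2.86 (2.41 to 3.38). PSMA4 had the same shape, with 81.6, 67.7, 75.4 and 604 CPM and a ratio of 2.41 (2.13 to 2.71). PSMA7, with 70.3, 41.4, 150.1 and 679 CPM, and PSMA5, with 53.4, 48.9, 137 and 483 CPM, had a higher level in the light polysomes than in the monosomes, with counting intervals that did not overlap. Their heavy to light ratios were 1.58 (1.38 to 1.80) and 1.22 (1.00 to 1.45), below and apart from the interval of PSMA3.

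The beta ring was less uniform, with 3 of 7 subunits called higher, none lower and a median of 0.75. The called members were PSMB4, a subunit without protease activity, at 1.85 (1.68 to 2.03), PSMB1 at 1.61 (1.42 to 1.80) and the trypsin-like protease PSMB7 at 1.34 (1.14 to 1.55). PSMB4 (chromosome 1, 151399534 to 151401944) had 174, 238, 205 and 1112 CPM, the highest of the 38 genes in the free and the heavy polysome libraries. The other proteases lay nearer the median gene, the chymotrypsin-like PSMB5 at 0.49 (0.31 to 0.68) and the caspase-like PSMB6 at 0.32 (0.16 to 0.49). PSMB5, which is the target of bortezomib, had 45.0, 209, 238 and 504 CPM, and PSMB6 had 47.8, 102, 295 and 557 CPM. PSMB3 lay at 0.75 (0.54 to 0.97).

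PSMB2 (chromosome 1, 35599544 to 35641844) stood apart within its ring. It had 53.4, 97.0, 729 and 717 CPM, so the light and the heavy polysome library were level while the monosome library was far lower. Its heavy to light ratio was -0.62 (-0.74 to -0.49), and its interval overlapped that of no other subunit of the ring. PSMB1, the subunit of the ring with the nearest heavy polysome level, had 50.6, 58.7, 175 and 805 CPM, and so differed from it mainly in the light polysome library.

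The 6 ATPases of the regulatory particle, which form the ring that unfolds substrates, had a median of 2.29, and 5 of 6 were higher. PSMC2 (chromosome 7, 103344254 to 103369395) had no count in the free library and then 13.5, 11.3 and 199 CPM. These rest on 18, 17 and 311 counts, and its ratio of 3.50 (2.84 to 4.34) was the highest of the 38 genes. PSMC6 was low in all libraries but the heavy polysomes too, with 11.3, 24.8, 11.3 and 158 CPM and a ratio of 3.17 (2.50 to 4.01). PSMC1, PSMC4 and PSMC3 lay at 2.49 (2.14 to 2.88), 2.10 (1.72 to 2.51) and 1.48 (1.24 to 1.74). GENCODE places exons of NRDE2 on the opposite strand over 75.8% of the exonic bases of PSMC1, and 13 pseudogenes are named after it, so its counts are less certain.

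PSMC5 was the ATPase that was not called, at 0.63 (0.45 to 0.82). It had 8.44, 89.5, 228 and 534 CPM, the most of the 6 in each library but the free one. Its light polysome level was the highest of the ring, and its interval overlapped that of none of the other ATPases. FTSJ3 on the opposite strand shares 19.5% of its exonic bases, and the sources used here do not say whether counting used strand.

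The base also holds large scaffold and ubiquitin-binding subunits, of which 2 of 3 were higher. The ubiquitin receptor PSMD4 had 30.9, 70.7, 64.7 and 412 CPM and lay at 2.07 (1.77 to 2.40). The scaffold PSMD2, with 2.81, 25.6, 51.4 and 275 CPM, lay at 1.82 (1.48 to 2.20). PSMD1, the other scaffold, had only 3, 8, 16 and 23 counts and lay at -0.14 (-1.11 to 0.89), an interval that spans the median gene.

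All 8 lid subunits with the prefix were higher, with a median of 2.34 and a range from 1.22 to 3.17. SEM1, a lid subunit without the prefix, was lower, at -2.80 (-3.04 to -2.57), and is described below. PSMD3 (chromosome 17, 39980797 to 39997960) had 3, 16, 53 and 755 counts, the last at 483 CPM, and lay at 3.17 (2.78 to 3.61). PSMD14, the deubiquitinase of the lid, had 2.81, 9.78, 16.0 and 209.6 CPM and lay at 3.09 (2.52 to 3.78). Its partner PSMD7, with 11.3, 24.8, 76.7 and 334 CPM, lay at 1.53 (1.24 to 1.84), and the intervals of the pair did not overlap. PSMD12, PSMD13, PSMD11 and PSMD6 lay between 2.06 and 2.57. PSMD8, the most counted lid gene with 73.1, 123, 165 and 579 CPM, was the lowest at 1.22 (1.01 to 1.43).

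The assembly factors were split, with 1 of 5 higher, 2 lower and a median of -0.89. PSMG3 and PSMG4, the pair of chaperones that helps to build the alpha ring, were the lowest of all 38 genes. PSMG3 (chromosome 7, 1567330 to 1571005) had 101, 279, 311 and 60.1 CPM, with its maximum in the light polysome library, and lay at -2.96 (-3.30 to -2.64). PSMG4 (chromosome 6, 3231403 to 3303373) had 19.7, 57.9, 147 and 38.4 CPM and lay at -2.52 (-2.96 to -2.11). Of the other alpha-ring pair, PSMG2 had 14.1, 30.1, 52.7 and 42.8 CPM and lay at -0.89 (-1.38 to -0.40), not called, while PSMG1 had 47.8, 63.9, 210.1 and 392 CPM and lay at 0.31 (0.11 to 0.51). The intervals of these partners did not overlap. PSMD10, known as gankyrin, which escorts an ATPase during base assembly, was the member called higher: it had 11.3, 30.1, 42.0 and 353 CPM and lay at 2.47 (2.10 to 2.88).

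The activators and the inhibitor had 3 of 4 members called higher. PSME1 and PSME2, which together form an interferon-inducible cap, had 0, 4.51, 10.0 and 70.3 CPM and 11.3, 20.3, 20.0 and 97.8 CPM. They lay at 2.18 (1.44 to 3.11) and 1.68 (1.13 to 2.31), and their intervals overlapped. PSME3, the nuclear activator, had 28.1, 53.4, 355 and 527 CPM and lay at -0.02 (-0.18 to 0.14), so like PSMB2 it was already abundant in the light polysomes. The inhibitor PSMF1 had 39.4, 18.8, 69.4 and 405 CPM and lay at 1.95 (1.66 to 2.27). PSMC3IP, a meiotic recombination cofactor that shares only the prefix, had 22.5, 85.0, 63.4 and 32.0 CPM and was the third member called lower, at -1.57 (-2.10 to -1.07). MLX on the opposite strand shares 29.9% of its exonic bases.

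Light polysomes were compared with monosomes to ask which proteasome mRNAs took a larger share of the light polysome library. Here 2 of 38 members were higher and 9 lower, against 14.9% and 16.3% of all tested genes, and the median was -0.25. With the fold alone and no interval the counts were 2 and 9 again, against 18.5% and 20% of all tested genes. Higher were PSMB2 at 1.92 (1.66 to 2.20), with 129 and 1093 counts, and PSME3 at 1.74 (1.39 to 2.13), with 71 and 533. PSMF1 followed at 0.88 (0.26 to 1.59), not called. The lower members came from several groups: the ATPases PSMC6 at -2.09 (-3.05 to -1.23) and PSMC2 at -1.24 (-2.29 to -0.20), the lid gene PSMD12 at -1.32 (-2.16 to -0.49), PSMA3 at -1.23 (-1.89 to -0.57), PSMB4 at -1.20 (-1.44 to -0.97) and PSMD4 at -1.11 (-1.54 to -0.69). PSMC3IP, at -1.41, PSME2 and PSMB7 were the others. By role the medians ran from -0.77 for the ATPases to 0.55 for the beta ring. In plain CPM 13 of the 38 genes were called higher and 1, PSMC6, lower, against 44% and 3.69% of all tested genes. In plain CPM the log2 ratios of the 9 ran from -1.11 for PSMC6 and -0.42 for PSMC3IP to -0.02 for PSME2 and PSMB7. Without centring the other 8 were not 2-fold lower. PSME2, with 27 and 30 counts, and PSMB7, with 219 and 244, were level, so their calls rest on the centre.

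Monosomes were compared with the free pool to ask which proteasome mRNAs took a larger share of the monosome library. A ratio of shares does not give the part of an mRNA's molecules that carried a ribosome. By the call rule 1 of 38 members was higher and 6 were lower, where 5.13% and 4.57% of all tested genes were. The median was -0.25. Members had a median of 18.3 CPM in the free library against 2.81 for all tested genes, and hence narrower intervals. With the fold alone and no interval 5 members were higher and 7 lower, against 21.6% and 20% of all tested genes. The member called higher was PSMC5, with 3 counts in the free and 119 in the monosome library, at 1.92 (0.56 to 4.44). The 6 lower members were PSMF1 at -2.35 (-3.33 to -1.28), 3 of the 4 measured alpha subunits and the beta subunits PSMB3 and PSMB1. PSMA7 lay at -2.05 (-2.74 to -1.29), PSMA4 at -1.55 (-2.15 to -0.88), PSMA5 at -1.42 (-2.15 to -0.57), PSMB3 at -1.46 (-2.15 to -0.66) and PSMB1 at -1.08 (-1.81 to -0.23). The median was -1.49 for the alpha ring and 0.63 for the ATPases. No ATPase or lid gene was among them. Among members with at least 100 counts in the pair, PSMB5 and PSMC3IP lay highest after PSMC5, at 0.91 (0.22 to 1.78) and 0.57 (-0.38 to 1.90), and PSMG1 and PSMB4 lowest after PSMA4, at -0.88 (-1.61 to -0.003) and -0.82 (-1.21 to -0.40). These values are imprecise, because the free library held 441 counts for the 38 genes together. The direction of the median rests on the centre: with every gene without a count set to 3 counts it was 0.49, and in plain CPM 1.02, with 16 members higher and 1, PSMF1, lower, against 27.2% and 0.797% of all tested genes.

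Over the ends of the gradient, heavy polysome against free, 14 of 38 members were higher and 3 lower, against 6.36% and 15.3% of all tested genes. Their median was 0.61. The call rule favours well-counted genes here, because the free library is shallow. With the fold alone and no interval 15 members were higher and 5 lower, against 23.5% and 30% of all tested genes. This comparison shares its libraries with those above. The 14 were 5 of 6 ATPases, 6 of 8 lid genes, PSMD2, PSMD10 and PSME3, and no alpha or beta subunit was among them. PSMC2 had a CPM at least 23.6-fold higher in the heavy polysome library against a floor of 3 counts in the free library. PSME1, also without a free count, was at least 8.33-fold higher and not called. The median gene was 8.26-fold higher with 0.5 added to each count, which is not the treatment of zeros behind these bounds. Of the 7527 genes, 2357 lacked a count in the free or heavy polysome library. With those at 3 counts the median gene lay at -1.068 in log2 relative to that value. PSMD6, with 1, 36, 67 and 441 counts, lay at 3.02 (1.12 to 8.91) and PSMD2, with 1, 34, 77 and 430 counts, at 2.98 (1.08 to 8.87). Each of these rests on 1 count in the free library. Core subunits had more free counts and lay near the median gene, from -0.38 (-0.74 to 0.02) for PSMB4 to 0.91 (0.28 to 1.71) for PSMB1, with PSMB3 at -0.29 (-0.88 to 0.45). The medians were 0.15 for the alpha and 0.40 for the beta ring, against 1.87 for the ATPases and 2.09 for the lid. Lower were PSMG3, with 36 and 94 counts, at -3.81 (-4.37 to -3.20), PSMC3IP at -2.61 (-3.63 to -1.25) and PSMG4 at -2.17 (-3.21 to -0.71). In plain CPM 34 members were higher and none lower, as 72.5% and 3.02% of all tested genes were. PSMG4 and PSMC3IP then lay above 0, at 0.87 and 0.43. Of the 38 genes, PSMG3 alone had a lower CPM in the heavy polysome than in the free library.

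The whole profile of a gene was described by dividing each CPM by the sum over the 4 libraries. The heavy polysome library held the highest CPM for 33 of 38 members (86.8%), against 61.3% of all tested genes, the light polysome library for 4 and the monosome library for PSMC3IP. The 4 were PSMG3, PSMG4, PSMG2 and PSMB2. The heavy polysome share of the profile ranged from 8.00% for PSMG3 through a median of 71.7% to 89.6% for PSMD3, and the median of all tested genes was 47.8%. A mean gradient position, weighting free, monosome, light and heavy polysome by 0, 1, 2 and 3, had a median of 2.51 over the members and 2.245 over all tested genes. It ran from 1.44 for PSMG3, 1.52 for PSMC3IP and 1.78 for PSMG4 to 2.81 for PSMD14, 2.83 for PSMC2 and 2.84 for PSMD3. By role the medians were 2.67 for the lid, 2.59 for the ATPases, 2.49 for the alpha ring, 2.32 for the beta ring and 1.89 for the assembly factors.

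**Figure D3:**
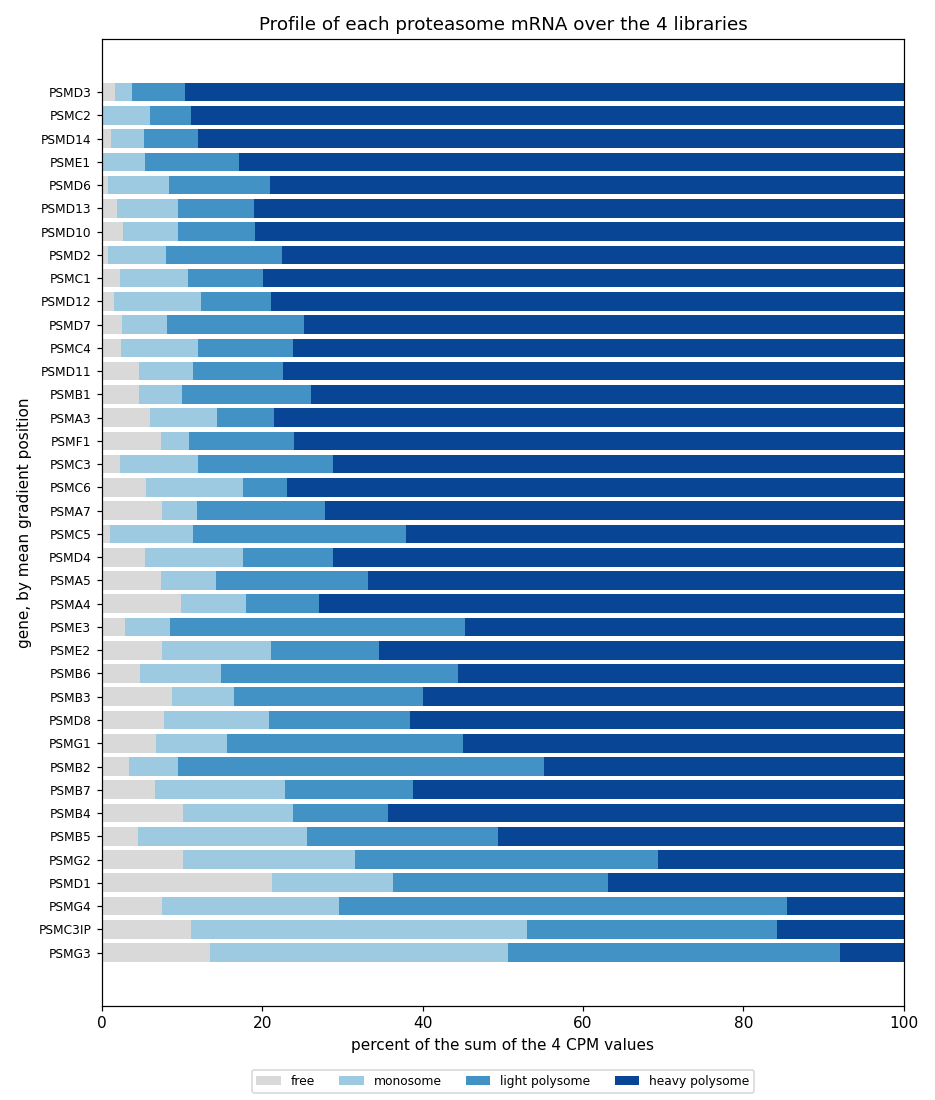
Share of each library in the sum of a gene's 4 CPM values, in percent, with genes ordered by mean gradient position. The heavy polysome part grows from 8.00% for PSMG3 to 89.6% for PSMD3, and PSMB2 has nearly equal light and heavy parts (45.7% and 44.9%).

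A longer coding sequence has room for more ribosomes, so the heavy to light ratio was set beside coding length from GENCODE 29. Across the 38 members Spearman's rho was 0.485 and Pearson's r with log2 length 0.515, and 0.394 and 0.277 without PSMG3 and PSMG4, the shortest. Across 7468 tested genes the values were 0.325 and 0.347. Genes share the libraries and are not independent replicates, so these are descriptions. PSMG3 and PSMG4, with 366 and 369 coding nucleotides, fell in a range (below 450) where 85.5% of 670 tested genes were called lower and the median was -2.08.

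Members of middle length had higher medians than all tested genes of their range, with no test of the difference. From 450 to below 900 nucleotides 11 of 19 members were higher and 1, PSMC3IP, was lower, against 14.9% and 34.6% of 1794 tested genes, and the medians were 1.34 and -0.47. From 900 to below 1500 nucleotides 13 of 14 were higher, with PSMC5 the exception, against 37.4% of 2333 genes, and the medians were 2.14 and 0.50. Of the 3 longer members PSMD2 and PSMD3 were higher, and 29.9% of 2671 genes were. Length left a wide spread within the family: PSMD10 and PSMC3IP, with 678 and 651 coding nucleotides, lay at 2.47 and -1.57. PSMA3 and PSME3, with 765 and 762, lay at 2.86 and -0.02.

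**Figure D4:**
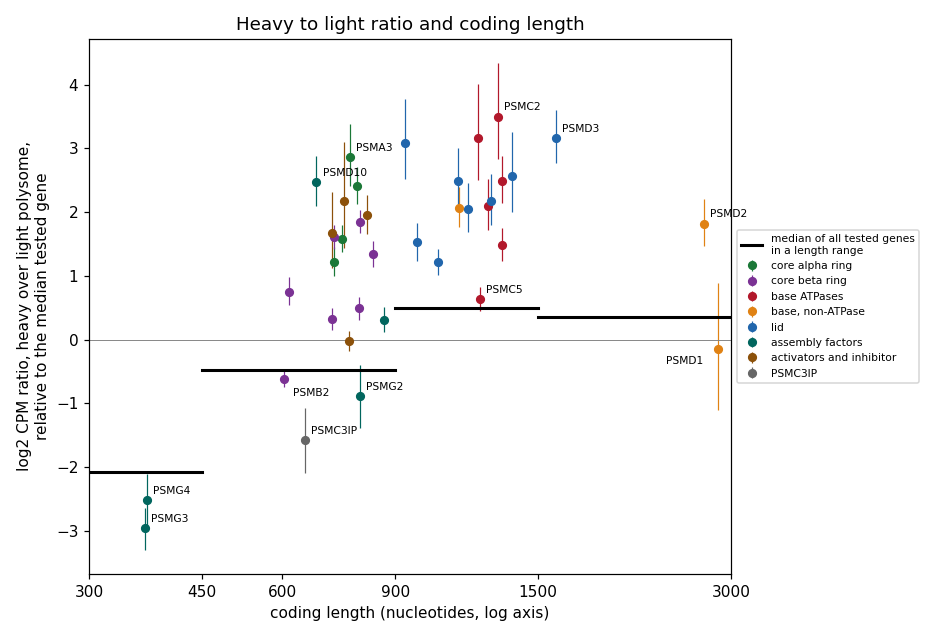
Log2 ratio of CPM in the heavy over the light polysome library relative to the median tested gene, against coding length in nucleotides on a log axis, for the 38 genes with 95% counting intervals; black bars give the median of all tested genes in each length range. Of the members from 450 to below 1500 nucleotides, PSMC3IP, PSMG2 and PSMB2 lie below the bar of their range and the others above it, while PSMG3 and PSMG4 lie below 450 nucleotides and below -2.

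Genes that work with the proteasome but lack the prefix were taken from a separate list, of which 29 were tested. Between heavy and light polysomes 16 of the 29 were higher and 4 lower, with a median of 1.10. Of all tested genes 26% were called higher and 28.3% lower. SEM1, the smallest lid subunit, was the lowest at -2.80 (-3.04 to -2.57), with 852 counts in the light and 192 in the heavy polysome library. The ubiquitin receptor ADRM1 of the base lay at 1.58 (1.31 to 1.88). Of the enzymes bound to the particle 4 of 6 were higher, led by the deubiquitinase UCHL5 at 3.22 (2.60 to 3.98), which docks on ADRM1. Of the shuttles that carry ubiquitinated proteins to the particle, UBQLN1 was higher at 1.92 (1.31 to 2.63). Of the ubiquitin genes UBB was higher at 1.66 (1.56 to 1.75), while RPS27A, which fuses ubiquitin to a ribosomal protein, was lower at -1.39 (-1.46 to -1.31). Among regulators of proteasome genes 4 of 5 were higher, and NFE2L1, the factor that induces them when the proteasome is inhibited, lay at 0.57 (-0.07 to 1.28). Few counts in the light and heavy polysome libraries stand behind NFE2L2 (7 and 43), DDI2 (2 and 27) and NGLY1 (11 and 61), which were among the 4.

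A pair of other cytosolic complexes gave a scale for these values, with no test of the difference. All 8 subunits of the chaperonin CCT were higher in the heavy than in the light polysomes, with a median of 2.36, a lowest value of 1.16 and a highest of 3.27. Of 13 subunits of the initiation factor eIF3, 6 were higher and none lower, with a median of 0.92. The shares over all tested genes were 26% higher and 28.3% lower. The median of the proteasome lid genes with the prefix, 2.34, lay next to that of the chaperonin, and that of the beta ring, 0.75, next to that of eIF3.

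The 11 symbols below the minimum were PSMA1, PSMA2, PSMA6, PSMA8, PSMB8, PSMB9, PSMB10, PSMB11, PSMD5, PSMD9 and PSME4. The closest to the minimum were PSMA1 with 26 counts, PSME4 with 25 and PSMD9 with 16, and just above it lay PSMD1 with 50 and PSME1 with 131. PSMB8 and PSMB9, the interferon-inducible proteases, had no count in any library, which allows up to 3 counts, or 1.92 CPM, in the heavy polysome library. PSMB10, the third inducible protease, the testis subunit PSMA8 and the thymus subunit PSMB11 had none either. PSMA2 and PSMA6, which every proteasome needs, had 1 count each. PSMA1, PSMA2, PSMA6, PSMB10 and PSMD9 were the 5 symbols whose exons GENCODE 29 shares with another coding gene on the same strand, and their sums ran from 0 to 26. The other 44 symbols had a median of 606 counts. Of these, 6 without such sharing were also below the minimum: PSME4 with 25 counts, the assembly factor PSMD5 with 1, and PSMA8, PSMB8, PSMB9 and PSMB11 with none. The sources used here do not say how reads over shared exons were counted, and its part in the low counts of the 5 was not tested. The values of the 5 were therefore not read as levels, and the alpha ring is described from 4 subunits.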

How the data were processed

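Direct RNA sequencing gave 1 library for each of 4 gradient pools. The authors deposited unscaled whole-number counts for each gene symbol. The tools named, per the submitters' processing notes, are minimap2 2.15 and featureCounts from Subread 1.6.2, with hg38. The sources used here do not give the annotation, strand use or treatment of multiply aligned reads. From these counts, CPM, log2 ratios (0.5 added to each count, 7527 genes with at least 30 counts), exact conditional binomial intervals, exact Poisson intervals for levels and Clopper-Pearson intervals for shares were computed. Ratios were centred on the median tested gene, and the procedure was tested on simulated data. Without residual degrees of freedom no replicate test could be fitted. Gene models came from GENCODE 29, which matched 99.0% of symbols, and start sites from RefSeq. The members, lists and named genes (per comparison the 3 highest and lowest members with at least 100 counts in the pair, the most counted of each role, and exceptions) were chosen with earlier results of these data known. Alternatives were other minimum counts, a pseudocount of 1, a floor of 3 counts, no centring, edgeR 4.0.16 (TMM) and DESeq2 1.42.0 (size factors), totals without ribosomal protein genes, thinning to the shallowest library, other profile weights, and leaving out PSMC3IP, PSMB4 or the free library. Python 3.11.15, numpy 2.4.6, pandas 2.3.3, scipy 1.17.1, matplotlib 3.10.9 and R 4.3.3 were used.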

Additional observations from a re-analysis of the deposited data

How the results depend on the processing

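Between heavy and light polysomes 26 members were higher and 3 lower, and both counts stayed within 1.5-fold under the 11 alternatives run; the median moved from 1.64 to 2.23 without centring, which removes the shift of the median gene. Comparisons with the shallow free library depended on the centre most. For monosome against free, the median of -0.25 became 0.35 with no minimum count, 0.49 with genes without a count at 3 counts, 1.02 without centring and 0.65 with totals lacking ribosomal protein genes. The members called higher there (1) became 6, 6, 16 and 9 in the same order, and 2 with a minimum of 10 counts, a pseudocount of 1, TMM or DESeq2 size factors; those called lower (6) became 2, 2, 1 and 2. PSMB1, called lower, turned to 0.18 without centring. For light polysome against monosome, the members called higher (2) became 4 with no minimum, 13 without centring and 7 without ribosomal protein genes; those called lower (9) became 1 without centring and 2 without ribosomal protein genes; the median became 0.73 without centring. For heavy polysome against free, the 14 called higher became 29 with no minimum, 28 at the floor, 34 without centring and 33 without ribosomal protein genes, and the 3 called lower became 0 and 1 under the last 2. Its median of 0.61 became 1.73 at the floor, 3.66 without centring and 2.45 without ribosomal protein genes, and PSMC3IP and PSMG4 turned to 0.43 and 0.87 without centring. TMM moved the median tested gene to 0.23 in monosome against free and 0.48 in heavy polysome against free. The share of all calls that were higher moved with the scaling. For monosome against free it was 52.9%, and 69.0% with TMM, 93.0% without ribosomal protein genes and 97.2% without centring. For heavy polysome against free it was 29.4%, and 49.7%, 87.0% and 96.0% in the same order and 44.5% with DESeq2 size factors. For light polysome against monosome (47.9%) and heavy against light polysome (47.9%) it became 71.6% and 60.8% without ribosomal protein genes and 92.3% and 68.7% without centring. The median gradient position became 2.67 (2.665) without the free library. Without PSMB4 the summed CPM became 1066, 2149, 4427 and 12963 from free to heavy polysome. No paired analysis was possible because each pool has 1 library. Depth limits the free library, where 22 members had under 10 counts.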
